A study of Homo sapiens with 4 samples.

Results

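A cluster of KRAB zinc finger protein (KZFP) genes near the end of the long arm of chromosome 12, at 12q24.33, was described CpG by CpG in HEK293T cells with and without ZNF274. The members were the CpGs listed in the call files on chr12:133400000-133800000 (hg19, GRCh37), a window defined by its coordinates. It was chosen with earlier results of these data known. The window held 6730 of the 27710999 CpGs listed on the autosomes and X, each of the 6730 lying on a CG of the GRCh37 sequence, and 6719 of them were covered in all 4 libraries. It contains 7 KZFP genes, in order ZNF605, ZNF26, ZNF84, ZNF140, ZNF891, ZNF10 and ZNF268, the start of GOLGA3, the whole of CHFR and the 3′ part of ANHX.

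The assay was EM-seq, enzymatic methyl sequencing. Its enzymes turn cytosines without methylation into bases that the sequencer reports as T, and protect methylated ones, which it reports as C. The mCG level of a region is its count of C over its count of C and T, as a percentage, after summing over the CpGs of the region, and differences between levels are in percentage points. The groups were wild type (WT) HEK293T cells and HEK293T cells knocked out for ZNF274 (ZNF274KO), with 2 libraries each and no other treatment. HEK293T is a human embryonic kidney line that carries SV40 large T antigen. The knockout was made with guide RNAs on either side of ZNF274 and sorting of single cells, so it is a deletion in clonal cells, and which clone each library came from is not given in the sources used here. Nothing says that the libraries of a group came from separate cultures, so p-values measure the spread between these libraries, which may be technical. The 501 CpGs of ZNF274 itself carried 5158 and 4274 reads in the WT libraries and 0 and 14 reads in the ZNF274KO libraries. Over the window WT 1 had 86953 reads, WT 2 had 70010, ZNF274KO 1 had 90533 and ZNF274KO 2 had 80274, with a median depth per CpG of 13, 10, 13 and 12 reads, where a read is counted at each CpG that it covers.

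KZFPs are the largest family of human transcription factors. They bind DNA through an array of C2H2 zinc fingers, most of which are encoded by the last coding exon, and their KRAB domain recruits KAP1 (TRIM28) and with it SETDB1, which deposits H3K9me3, and other silencing enzymes. Most KZFP genes lie in tandem clusters, and ZNF274 binds the exons that encode zinc fingers of many of them. In mammalian DNA most CpGs are methylated, including those of transcribed gene bodies, CpG islands at active or poised starts are unmethylated, and large stretches of heterochromatin in cultured cells are only partially methylated.

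Short stretches of 300 bases are shown for the places on which the results turn. All are on the plus strand of GRCh37, written 5′ to 3′, with every CpG in capitals. The first is in the last coding exon of ZNF605 (chr12:133502915-133503214), which encodes its zinc fingers on the minus strand. It held 7 CpGs, at 33.1% and 26.7% in WT and 85.2% and 72.4% in ZNF274KO.
ZNF605 finger exon: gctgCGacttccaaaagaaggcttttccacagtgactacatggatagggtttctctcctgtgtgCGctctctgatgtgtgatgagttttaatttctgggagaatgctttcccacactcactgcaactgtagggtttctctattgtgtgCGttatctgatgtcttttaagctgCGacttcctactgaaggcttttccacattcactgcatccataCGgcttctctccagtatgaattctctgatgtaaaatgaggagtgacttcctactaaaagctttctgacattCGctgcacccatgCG
The other 3 concern starts. Of these, 1 fills most of the gap between the divergent starts of ZNF891 and ZNF10 (chr12:133706861-133707160), and the others are the eligible stretches with the largest fall within 2 kb after the starts of ZNF605 (chr12:133531928-133532227) and ZNF10 (chr12:133707631-133707930), both intronic. Stretches that overlap untranslated exon sequence, hold a CpG in sequence repeated on the chromosomes or have under 5 CpGs were not eligible.
ZNF891 and ZNF10 starts: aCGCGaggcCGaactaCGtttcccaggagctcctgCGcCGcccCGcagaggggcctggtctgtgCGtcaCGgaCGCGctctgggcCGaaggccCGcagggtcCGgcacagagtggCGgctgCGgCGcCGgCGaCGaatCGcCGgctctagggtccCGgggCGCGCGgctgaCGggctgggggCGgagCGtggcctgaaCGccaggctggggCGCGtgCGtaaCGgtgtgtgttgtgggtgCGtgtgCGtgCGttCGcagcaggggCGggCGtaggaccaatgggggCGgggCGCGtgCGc
After the ZNF605 start: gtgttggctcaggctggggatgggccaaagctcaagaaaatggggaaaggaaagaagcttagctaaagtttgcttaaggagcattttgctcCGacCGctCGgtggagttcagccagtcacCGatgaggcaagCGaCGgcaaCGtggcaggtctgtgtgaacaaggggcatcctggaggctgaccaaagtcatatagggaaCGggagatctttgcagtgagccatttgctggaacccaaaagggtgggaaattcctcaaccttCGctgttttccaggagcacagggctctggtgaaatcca
After the ZNF10 start: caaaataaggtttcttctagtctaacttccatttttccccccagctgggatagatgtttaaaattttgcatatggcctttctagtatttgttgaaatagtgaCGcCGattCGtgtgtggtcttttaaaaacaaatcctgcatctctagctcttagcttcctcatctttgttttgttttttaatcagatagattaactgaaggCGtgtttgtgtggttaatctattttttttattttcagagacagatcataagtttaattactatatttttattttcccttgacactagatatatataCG
The stretch between the starts packs 44 CpGs into 300 bases with a GC content of 74.7%, and 1 methylated read of 604 was seen in WT 1, against 0 of 301, 0 of 522 and 0 of 739 in the other libraries, in the order given above (allowing up to 0.997%, 0.575% and 0.406%). After the ZNF605 start, 9 CpGs were at 86.7% and 83.1% in WT and at 11.9% and 43.8% in ZNF274KO. After the ZNF10 start, 5 CpGs were at 96.5% and 87.5% in WT and at 3.57% and 33.3% in ZNF274KO. The stretch between the starts was thus at or near 0 in every library, whereas the stretches after the ZNF605 and ZNF10 starts were lower in each ZNF274KO library than in either WT library. Limits of this kind cover counting error only, and stretches picked for their values carry no test.

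The window as a whole was compared first. The mCG level over all its CpGs was 59.4% and 59.5% in WT, and 70.7% and 66.5% in ZNF274KO. The groups were apart, meaning that each ZNF274KO library lay on the same side of each WT library, with ZNF274KO 9.16 points higher on average (59.5% ± 0.0612 against 68.6% ± 2.96, SD, n = 2), and ZNF274KO 1 lay above ZNF274KO 2. The two-sided exact permutation test gave p = 0.333, the smallest that 2 libraries against 2 allow. The stretch of the same length just before the window (13246 CpGs) had 79.9% and 79.4% in WT and 78.5% and 77.3% in ZNF274KO, so that it was lower by 1.74 points. Over the autosomes and X the levels were 59.3%, 60.4%, 60.2% and 58.4%, with the groups overlapping. Of the 6208 CpGs of the window that all libraries covered with at least 5 reads, 28.7% and 28.5% had levels under 20% in WT, and 16.1% and 17.9% in ZNF274KO. The share over 80% was 48.8% and 48.1% in WT, and 60.2% and 54.1% in ZNF274KO. Counted on either strand alone, the difference was 9.06 points (Watson) and 9.26 points (Crick).

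Sequence and depth of the window bear on how these reads were placed. Around 6221 of the 6730 CpGs, the converted 100 bases occurred only at that place on the chromosomes of GRCh37, and over these the difference was 8.72 points. For 2743 CpGs, from ZNF605 to ZNF140, the same 100 bases also lie on unplaced scaffolds, which the call files do not list, 2726 of them on 1 scaffold. The mean depth was 13.1, 10.5, 13.9 and 12.2 reads at these CpGs and 12.9, 10.4, 13.2 and 11.8 at the 3737 CpGs found once on the chromosomes and on no scaffold, in the order WT 1, WT 2, ZNF274KO 1 and ZNF274KO 2. The difference was 13.6 points at the former and 5.87 points at the latter, with the groups apart in both. These sets lie in different parts of the window. The latter takes in CpGs of the CHFR body, which differed by -1.56 points over 1492 CpGs. Repeated sequence and position were not tested apart. Relative to the genome, the window was covered 1.21 and 1.13 times in WT and 1.35 and 1.37 times in ZNF274KO, and the flank 1.19, 1.15, 1.25 and 1.29 times. The part of this depth difference in the result was not tested.

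To place the difference within the window, CpGs were summed in 2 kb tiles and tested together with all tiles of the autosomes and X in edgeR. Of 198 tiles tested in the window, 70 were called higher in ZNF274KO and 5 lower (edgeR, adjusted p under 0.05), which is 35.4% and 2.53%. Over 1357123 tiles of the genome the shares were 0.461% higher and 0.0236% lower, below those of the window in both directions. Since the window was chosen with earlier results of these data known, this excess describes it and tests nothing. At an unadjusted p under 0.05 the window had 105 tiles higher and 11 lower, where 6.29% of all tiles passed in either direction. Of the 200 tiles of the flank 0 were called higher and 1 lower (1 and 11 at an unadjusted p under 0.05). The groups were apart upwards in 120 tiles of the window and downwards in 30, against 14.6% and 20.3% of all tiles. The 70 higher tiles rose by 9.33 to 70.1 points with a median of 38.1, and ZNF274KO 1 lay above ZNF274KO 2 in 67 of them. Pooled, they had 36.2% and 37.1% in WT, against 74.6% and 65.3% in ZNF274KO. The median over all 198 tiles was 7.46 points (quartiles -0.832 and 28.6). Without ZNF274KO 1 there were 53 higher and 1 lower, and limma called 11 higher and 0 lower.

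**Figure D1:**
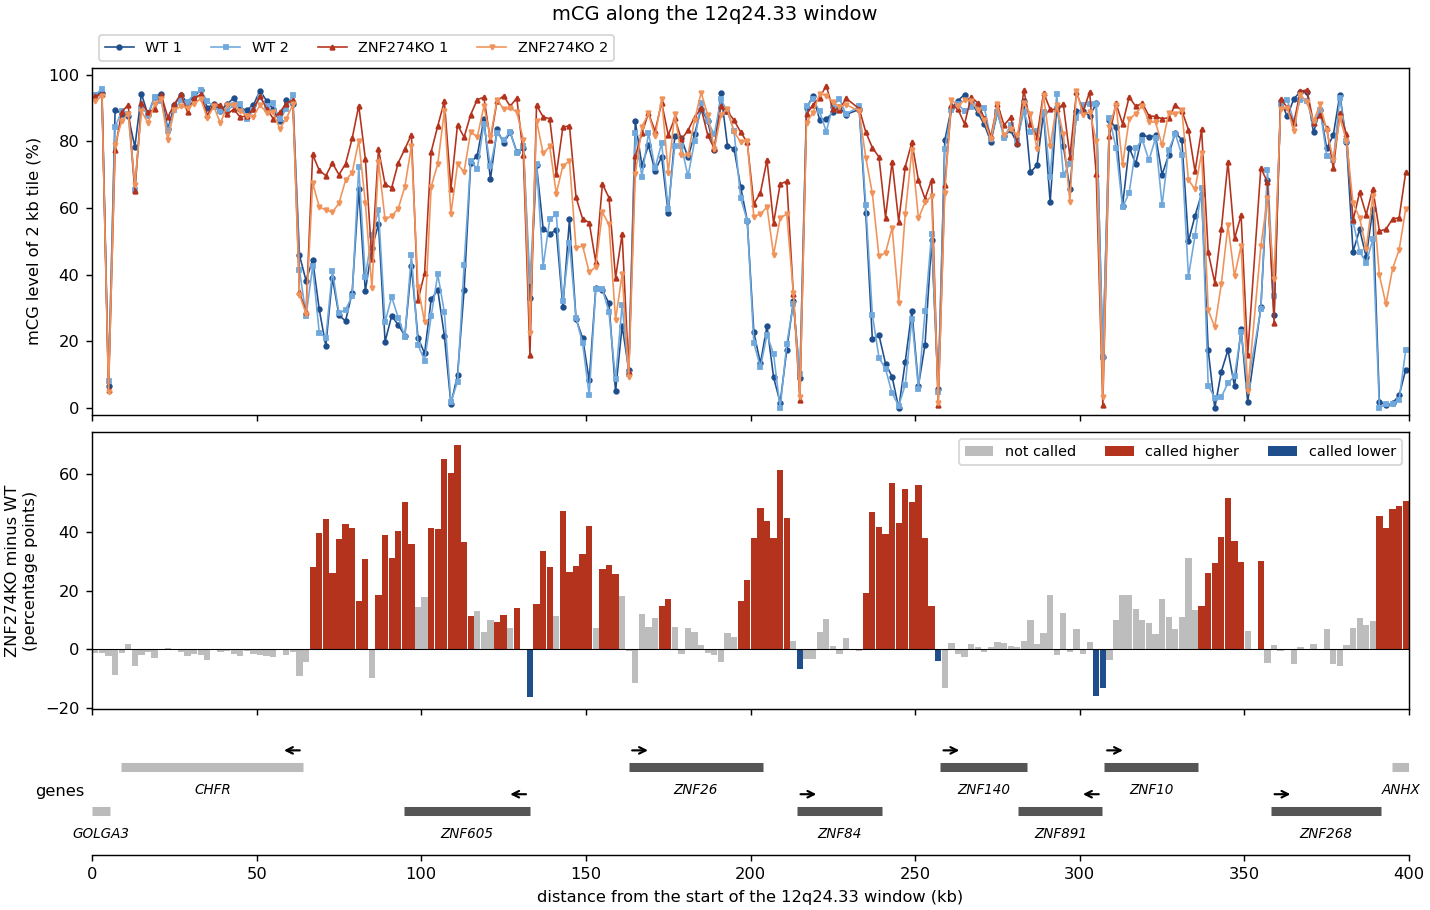
mCG along the window in 2 kb tiles, with the level per library (top, %), the difference between group means (middle, percentage points; called tiles coloured) and the canonical transcripts (bottom; KZFP genes dark, arrows at starts), against the distance from the start of the window in kb. No tile of the canonical CHFR body is called, called rises form separate blocks from its start on, and the 5 called falls overlap promoters of KZFP genes.

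The rises began beyond the start of the canonical CHFR transcript. The full gene span of CHFR begins at the ZNF605 start, so it takes in the sequence counted here as between CHFR and ZNF605. CHFR encodes an E3 ubiquitin ligase of a mitotic checkpoint, and GOLGA3 encodes a golgin of the Golgi apparatus. Of the 32 tiles that end before the CHFR start 0 were called in either direction, at a median of 91.0% and 90.2% in WT, and 89.7% and 88.8% in ZNF274KO. The 166 tiles from the CHFR start on included all 70 higher and all 5 lower calls of the window. Called higher tiles with gaps of at most 2 tiles between them formed 7 runs.

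Run 1 spanned 50 kb (chr12:133466001-133516000) from upstream of the CHFR start into the 3′ part of ZNF605, with 22 of its 25 tiles called. Its level was 39.4% and 42.3% in WT, and 72.8% and 63.1% in ZNF274KO. Run 2 spanned 38 kb (chr12:133522001-133560000), the 5′ part of ZNF605 and the sequence upstream of it up to near ZNF26, with 14 of 19 tiles called, and went from 51.3% and 52.7% to 68.8% and 66.2%. It takes in the ZNF605 start, where a tile fell. These were the longest runs of the window, and both overlap ZNF605. Of the 854 CpGs of run 1 covered by at least 5 reads each time, 491 (57.5%) had both ZNF274KO libraries above both WT libraries and 51 (5.97%) had them below, against 29.5% and 10.8% of such CpGs over the whole window. Since the runs were assembled from tiles called higher, these shares describe the runs and test nothing.

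The next runs lay around ZNF26 and ZNF84. Run 3, of 4 kb in the body of ZNF26 (chr12:133572001-133576000), had 65.5% and 67.4% in WT, and 85.6% and 78.7% in ZNF274KO. Run 4 (16 kb, chr12:133596001-133612000) covered the 3′ end of ZNF26 and stopped just before the ZNF84 promoter. All 8 of its tiles were called, and the level went from 28.5% and 26.7% to 71.0% and 63.3%. Run 5 (22 kb, chr12:133634001-133656000) went from the 3′ part of ZNF84 up to the ZNF140 promoter. All 11 of its tiles were called, with 24.8% and 24.6% in WT, and 70.6% and 58.9% in ZNF274KO. In runs 4 and 5, 116 of 152 and 163 of 208 CpGs with 5 reads (76.3% and 78.4%) had the groups apart upwards, and 0 and 5 downwards, which the choice of called tiles again favours.

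The last runs lay downstream of ZNF10 and at the end of the window. Run 6 (20 kb, chr12:133736001-133756000), between ZNF10 and ZNF268, had 8 of 10 tiles called and went from 22.7% and 21.5% to 59.2% and 44.2%. It is crossed by a readthrough transcript, ENSG00000256825. Run 7 (10 kb, chr12:133790001-133800000) covered the last bases of ZNF268 and the 3′ part of ANHX, the anomalous homeobox gene, and went from 5.03% and 6.54% to 60.3% and 47.6%. It had the lowest WT level and the largest difference of the 7 runs, 48.2 points. In all 7 runs ZNF274KO 1 lay above ZNF274KO 2.

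**Figure D2:**
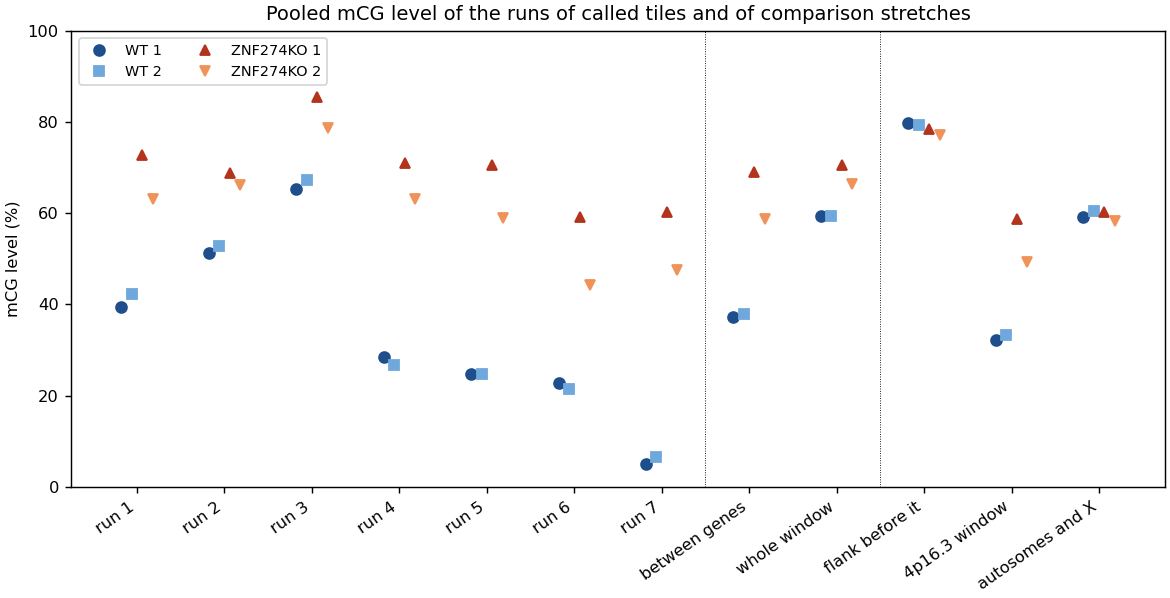
Pooled mCG level (%, vertical axis) per library for the 7 runs of called tiles, for all CpGs between genes, for the whole window, and for the flank, the 4p16.3 window and the autosomes and X. Each point is 1 library, and the runs were defined by the calls, so their separation is a description. WT libraries lie below ZNF274KO libraries in every run, from about 5% in run 7 to about 66% in run 3.

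Of called tiles that held 10 CpGs or more, the 5 with the largest rise lay in ZNF605 and between genes. The tile at chr12:133510001-133512000, in an intron of ZNF605, had 9.94% and 7.97% in WT, and 85.0% and 73.1% in ZNF274KO, a rise of 70.1 points (edgeR adjusted p = 6.4e-09). The tiles at 133506001 and 133508001, also in ZNF605, rose by 65.2 and 60.5 points. The tile at 133506001 reached 92.1% and 89.0% from 21.8% and 28.9%. At 133608001, between ZNF26 and ZNF84, 0 of 158 reads were methylated in WT 2 (up to 1.9%) and 1.68% in WT 1, against 67.2% and 57.0% in ZNF274KO (61.3 points, edgeR adjusted p = 6.0e-09). At 133642001, between ZNF84 and ZNF140, the rise was 57.1 points, from 9.40% and 4.45% to 73.9% and 54.1%. These 5 tiles are among the 17 tiles and genes named as called, of which limma still called 6.

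The calls differed with what the tiles overlapped, and these classes of tiles also differed in WT level. Between the canonical transcripts of protein-coding genes, 37 of 40 tiles were called higher and 0 lower. At the CpGs between genes (1772) the level was 37.2% and 37.9% in WT, and 69.2% and 58.7% in ZNF274KO. Of the tiles over KZFP bodies away from promoters 22.8% were called higher (23 tiles) and 0 lower, and of the 17 tiles that overlap a promoter 0 were called higher and 5 lower. Of the other 32 tiles over GOLGA3, CHFR or ANHX 3 were called, each in ANHX. Of the 8 tiles over the readthrough transcript ENSG00000256825 only, 7 were called higher. The 3 tiles between genes that were not called included a CpG island with no protein-coding start, described below. By level, 25 of the 32 tiles under 20% in WT and 25 of the 32 tiles from 20% to 40% were called higher, but 1 of the 79 tiles at 80% or more. The WT level is also what the difference is taken from, and tiles at 80% or more had little room to rise. This split therefore describes the tiles and tests nothing. Over all tiles of the genome, at any WT level, 0.461% were called higher, and shares at like WT levels were not taken.

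The gaps between the canonical transcripts of neighbouring genes, leaving out promoters, differed in length and level. The gaps from CHFR to ZNF605 (30.7 kb) and from ZNF605 to ZNF26 (30.1 kb) had WT means of 42.2% and 39.9%, and ZNF274KO means of 65.1% and 65.7%. The shorter gaps from ZNF26 to ZNF84, ZNF84 to ZNF140 and ZNF10 to ZNF268 had WT means of 27.6%, 22.1% and 30.4%, and ZNF274KO means of 66.0%, 59.9% and 56.1%. The short gap from ZNF268 to ANHX (26 CpGs) had 0.721% and 0.707% in WT, and 49.0% and 33.9% in ZNF274KO. The gap from GOLGA3 to CHFR was at 90.04% to 92.2% in every library, with the groups overlapping.

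Gene bodies, taken from 1 kb after the start and leaving out promoters, were compared next. Of the 7 KZFP bodies 3 were called higher (ZNF605, ZNF26 and ZNF10) and 0 lower, and of the 3 neighbours ANHX alone was called. Over 18747 gene bodies of the genome 0.923% were called higher and 0.0213% lower. In each of the 7 KZFP bodies both ZNF274KO libraries were above both WT libraries, which held for 8.26% of all bodies tested, and the median difference was 6.43 points. At an unadjusted p under 0.05 in edgeR, 5 KZFP bodies were higher and 0 lower, where 9.44% of all bodies passed in either direction.

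ZNF605 (ENSG00000196458, chr12:133494892-133532892, minus strand), whose protein has 17 finger patterns, had 62.5% and 63.7% in WT, and 85.1% and 81.5% in ZNF274KO. The body rose by 20.2 points (63.1% ± 0.898 to 83.3% ± 2.54, SD, n = 2; edgeR adjusted p = 0.000115), the most of the KZFP bodies. ZNF10 (ENSG00000256223, chr12:133707213-133736051), the KZFP from which the KRAB repressor domain of many synthetic silencers was taken, rose by 11.4 points, from 76.8% and 73.1% to 88.0% and 84.6% (edgeR adjusted p = 0.0120). ZNF26 (ENSG00000198393, chr12:133562953-133603688, 13 finger patterns) rose by 6.95 points, from 74.9% and 73.8% to 82.2% and 80.4% (edgeR adjusted p = 0.0185). The calls of ZNF10 and ZNF26 were lost with limma (adjusted p = 0.185 and 0.258) and without ZNF274KO 1 (edgeR adjusted p = 0.230 and 0.267), and that of ZNF26 also with a replicate block (edgeR adjusted p = 0.0817). Over the whole gene span with promoters, the ZNF10 difference was 1.54 points.

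The remaining KZFP bodies did not pass the test. ZNF84 (chr12:133614095-133639885) had 78.4% and 79.4% in WT, and 87.2% and 83.4% in ZNF274KO, with an edgeR adjusted p of 0.159. It passed without WT 2 and with levels centred on the genome (edgeR adjusted p = 0.00581 and 0.0368). ZNF268 (chr12:133758081-133791418, 24 finger patterns, the longest array here) had 76.4% and 75.2% against 81.8% and 79.6%. ZNF891 (chr12:133681365-133706860) and ZNF140 (chr12:133657509-133684014), whose 3′ ends overlap, stood at 83.4% to 87.4% in WT and 85.9% to 88.0% in ZNF274KO. These were the KZFP bodies with the highest WT levels, and their differences were 2.14 and 0.552 points. Over the whole gene span with promoters that of ZNF891 was -1.20 points.

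Of the neighbours, ANHX went from 8.10% and 8.15% in WT to 62.6% and 48.8% in ZNF274KO, a rise of 47.6 points (edgeR adjusted p = 0.000105), with most of its body beyond the window. The body of the readthrough ENSG00000256825, which runs from near the ZNF10 start into ZNF268 and shares their CpGs, was called as well (12.7 points, edgeR adjusted p = 0.0109). CHFR had 90.5% and 89.4% in WT, and 88.9% and 87.9% in ZNF274KO, and its difference turned from -1.56 to 6.80 points over the whole gene span with promoters. GOLGA3, most of which lies before the window, had 92.5% and 92.4% against 91.5% and 90.4%. In both, the ZNF274KO libraries lay below the WT libraries, as they did in 39.2% of all gene bodies tested.

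Within most of the bodies the difference was uneven. Each transcript that lies wholly in the window was cut into 4 segments of equal length from its start (segment 1) to its end (segment 4), leaving out promoters, and the 5 kb beyond its end were added. In ZNF605 segments 1 and 2 went from 80.1% and 80.2% to 89.3% and 88.5%, and from 77.6% and 77.1% to 90.1% and 85.1%. Segment 3 went from 22.7% and 27.6% to 83.6% and 74.98%, and segment 4, which holds the last coding exon, from 34.1% and 34.2% to 69.0% and 65.5%. The 3′ part of this gene thus held the low levels in WT and the larger differences, 54.2 and 33.1 points.

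In ZNF26, ZNF84 and ZNF268 the largest difference was in segment 4. Segment 4 of ZNF26 went from 53.1% and 54.1% in WT to 77.1% and 74.0% in ZNF274KO, and segment 2 from 74.5% and 72.3% to 83.7% and 78.6%, whereas segments 1 and 3 differed by 2.48 and -0.414 points. Segment 4 of ZNF84 went from 41.9% and 43.6% to 77.5% and 63.4%, while segment 1 was lower in ZNF274KO, at 84.7% and 81.8% against 89.9% and 89.4%. In ZNF268 segments 1 to 3 differed by less than 1 point in either direction, and segment 4 went from 40.6% and 36.8% to 61.6% and 52.3%. In these genes segments 1 to 3 had WT means from 73.4% to 91.1%, and segment 4 had WT means from 38.7% to 53.6%.

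In ZNF10 all 4 segments differed by nearly the same amount, from 10.3 to 12.4 points, with the groups apart in each. None of the 13 tiles that lie within its body away from the promoter was called in edgeR, although all 13 had the groups apart upwards and 12 passed an unadjusted p under 0.05. By contrast 11 of the 17 tiles within ZNF605 were called, and all 17 had the groups apart upwards. ZNF26 had 5 of 19 called and ZNF84 had 2 of 10. ZNF140, ZNF891 and ZNF268 had 0 called of 12, 11 and 15, with 0, 5 and 1 higher at an unadjusted p under 0.05. Over all tiles of the genome 0.461% were called higher in edgeR and 14.6% had the groups apart upwards. An unadjusted p under 0.05 in edgeR was reached by 6.29% in either direction. In ZNF140 the segments differed by -1.04 to 1.68 points, and in CHFR by -1.69 to -1.17 points.

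Beyond the ends of 6 of the 7 KZFP genes the WT level was lower than in segment 4. In the 5 kb after ZNF26 the level was 17.4% and 17.0% in WT, and 68.3% and 55.7% in ZNF274KO. After ZNF84 it was 10.5% and 6.07%, and 69.3% and 49.3%. After ZNF268, where ANHX begins to overlap, it was 1.64% and 1.92% in WT, and 55.8% and 39.5% in ZNF274KO. After ZNF605 and ZNF10 it differed by 37.1 and 20.2 points from WT means of 27.3% and 42.8%. After ZNF140 and ZNF891, whose 3′ ends run into each other, the libraries overlapped at 70.6% to 85.6%. No stretch of these was tested on its own.

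**Figure D3:**
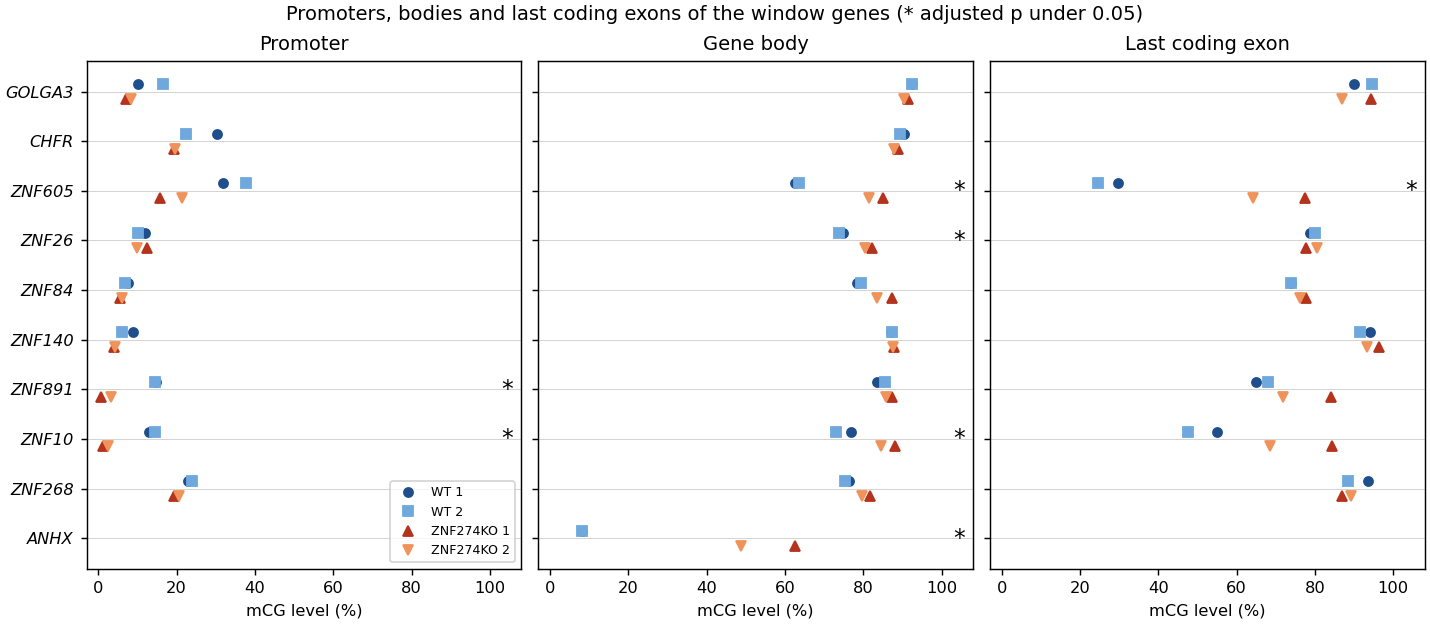
mCG level (%, horizontal axis) of promoters, bodies and last coding exons of the named genes, with 1 point per library and an asterisk where the edgeR adjusted p is under 0.05. KZFP bodies shift to the right in ZNF274KO, KZFP promoters lie to the left or overlap (ZNF26), and the last coding exon of ZNF605 moves from about 27% to about 71%.

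The last coding exon, which holds the zinc fingers and which ZNF274 is known to bind in many KZFP genes, was tested on its own. Of the 7 KZFP exons 1 was called higher, that of ZNF605, and 0 lower. Over 9438 last coding exons of the genome 1.06% were called higher and 0.053% lower, and 6.7% passed an unadjusted p under 0.05 in edgeR, as did 2 KZFP exons here (ZNF605 and ZNF10, both higher). The ZNF605 exon (chr12:133501962-133503748, 18 CpGs) had 29.7% and 24.5% in WT, and 77.6% and 64.2% in ZNF274KO, a rise of 43.8 points (27.1% ± 3.69 to 70.9% ± 9.46, SD, n = 2; edgeR adjusted p = 9.7e-06; limma adjusted p = 0.176). At 16 of its 18 CpGs both ZNF274KO libraries were above both WT libraries, and at 1 below, against 29.5% and 10.8% of the CpGs with 5 reads over the whole window. The ZNF10 exon went from 54.9% and 47.5% to 84.3% and 68.5% on 6 CpGs and 61 to 91 reads without passing the test (edgeR adjusted p = 0.191; 0.0254 with a replicate block). ZNF891, with 5 CpGs, had 64.9% and 68.1% against 84.1% and 71.9%. The exons of ZNF26, ZNF84, ZNF140 and ZNF268 differed by -2.83 to 3.06 points, with WT levels from 73.9% to 94.0%.

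KZFP promoters, 1 kb either side of the start, were not called higher. Of 7 KZFP promoters 2 were called lower, ZNF891 and ZNF10, and 0 higher. Over 19422 promoters 0.0618% were called lower and 0.201% higher. At an unadjusted p under 0.05 in edgeR, 4 KZFP promoters were lower and 0 higher, where 6.42% of all promoters passed in either direction. The ZNF10 promoter (130 CpGs) had 12.9% and 14.5% in WT, and 1.11% and 2.56% in ZNF274KO (-11.9 points; edgeR adjusted p = 0.00393). The ZNF891 promoter (137 CpGs) had 14.7% and 14.4% against 0.707% and 3.17% (-12.6 points; edgeR adjusted p = 0.00763). The starts of these genes lie side by side on opposite strands, so the calls share most of their CpGs and are not separate measurements. Limma called 0 promoters in the genome, and 500 bases either side the ZNF891 call was lost, with -0.775 points. An alternative edgeR fit, with bias-adjusted deviances, called 1 of these 2 promoters.

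ZNF605 had the largest promoter difference, from 31.8% and 37.7% in WT to 15.8% and 21.4% in ZNF274KO (-16.1 points), and did not pass the threshold (edgeR adjusted p = 0.0587). It passed with a replicate block, with CpGs of at least 3 reads, and without WT 1, WT 2 or ZNF274KO 2. The ZNF84, ZNF140 and ZNF268 promoters also had the groups apart downwards, at -1.35, -3.47 and -3.47 points, as had those of CHFR and GOLGA3, at -7.01 and -5.40 points. None of these passed the test. The WT libraries differed at several of them, with 30.3% and 22.4% for CHFR, 10.02% and 16.4% for GOLGA3, and 8.97% and 6.04% for ZNF140. Without WT 1 the differences of CHFR, ZNF140 and ZNF84 were -3.05, -2.004 and -0.890 points, and without WT 2 that of GOLGA3 was -2.19 points. The ANHX promoter, which lies outside the window and whose test result was not kept, was at 73.2% and 71.3% in WT and at 86.4% and 80.8% in ZNF274KO. For ZNF26 the libraries overlapped, at 9.79% to 12.5%. Groups apart downwards were found in 20.3% of all promoters.

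The tile calls at starts had the same direction. All 5 called falls overlapped KZFP promoters, and the 3 most negative tiles of the window were among them. They were the ZNF605 start (133532001, -16.2 points, 33.0% and 38.1% to 16.0% and 22.6%), the tile on the ZNF891 side of the ZNF891 and ZNF10 starts (133704001, -16.1 points, 91.4% and 91.2% to 70.1% and 80.3%) and the tile that holds both of these starts (133706001, -13.3 points, 15.4% and 15.3% to 0.867% and 3.29%). Most of the tile at 133704001 lies in the ZNF891 body, since the ZNF891 promoter begins at 133705860. The tiles at the ZNF84 start (133614001) and the ZNF140 start (133656001) fell by 6.73 and 3.98 points from levels that were already at or under 10.1%. Without ZNF274KO 1 the tile at 133706001 alone of these 5 was still called, and limma called none of them.

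The falls were placed by measuring 500-base bins around each start. In the 500 bases before the start the level ranged from 0% to 0.405% over the libraries for ZNF84 and from 0% to 0.338% for ZNF140. For ZNF268 it was 21.8% and 11.8% in WT, and 12.6% and 11.1% in ZNF274KO, so that the libraries overlapped. For ZNF605 it differed by -10.1 points. Farther upstream, the bin from 1000 to 501 bases before the ZNF605 start went from 79.0% and 79.8% in WT to 51.4% and 56.4% in ZNF274KO. The bin that begins 1500 bases before the ZNF140 start went from 42.6% and 29.5% to 10.3% and 12.05%. The neighbours had falls as well. At GOLGA3 the bin from 1000 to 501 bases before the start went from 82.1% and 75.8% to 58.7% and 60.5%. At CHFR the bin from 500 to 999 bases after the start went from 70.3% and 72.5% to 50.6% and 65.9%. Upstream bins of ZNF891 and ZNF10 share CpGs with those after the start of the other gene. For ZNF10, the bin from 500 to 999 bases after the start went from 93.8% and 92.1% in WT to 12.2% and 38.2% in ZNF274KO. For ZNF891 the same bin went from 78.9% and 88.2% to 4.76% and 32.3%. For ZNF605 it went from 83.1% and 81.4% to 31.1% and 57.5%. For ZNF26 the bin from 1000 to 1499 bases after the start went from 90.9% and 86.4% to 41.2% and 57.7%. For ZNF84 the same bin went from 72.2% and 73.2% to 17.8% and 35.1% on 4 CpGs, and the bin from 500 to 999 bases differed by -34.5 points on 3 CpGs. In each of these bins after a start ZNF274KO 1 was the lower of the ZNF274KO libraries. This is the library that was also the higher one in each of the 7 runs.

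**Figure D4:**
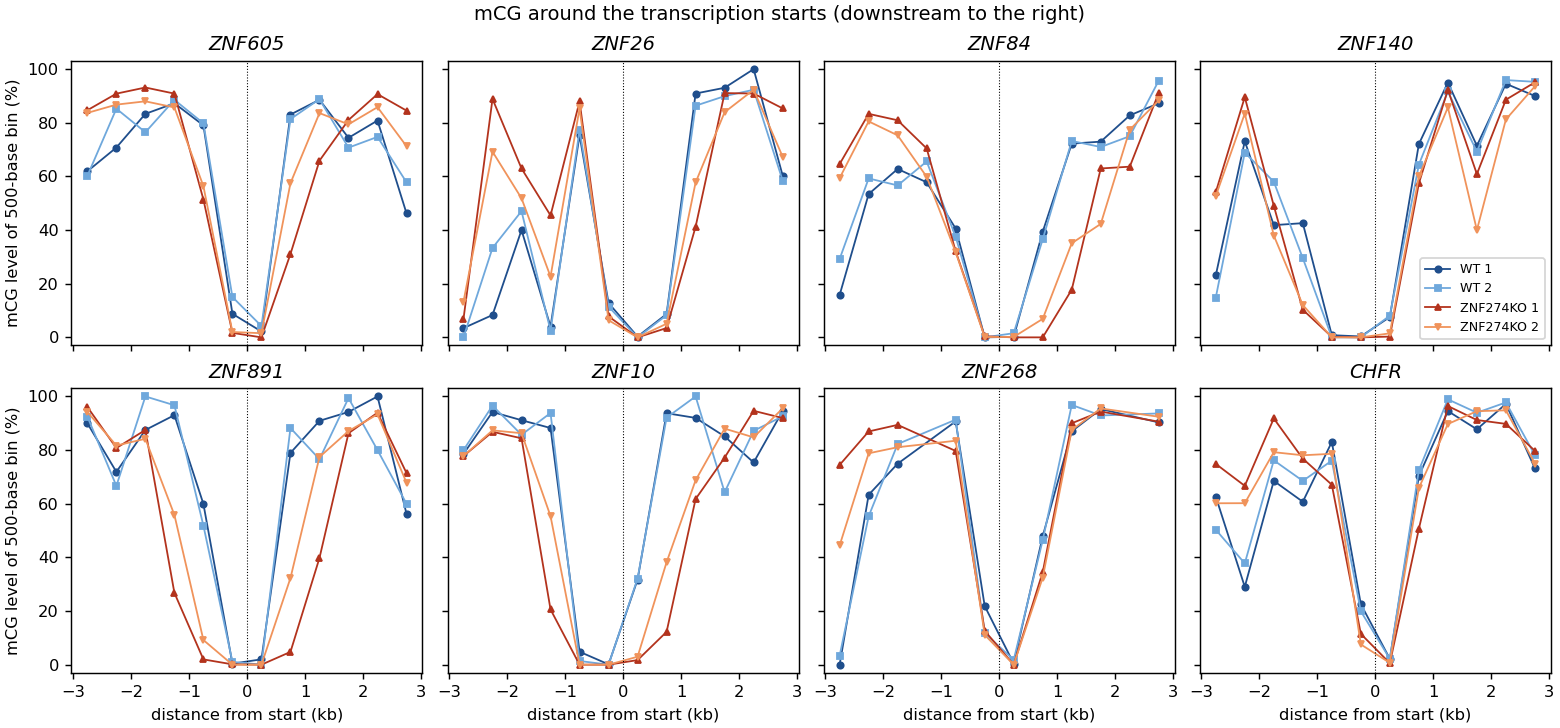
mCG level (%, vertical axis) of 500-base bins within 3 kb of 8 starts, with the distance from the start in kb on the horizontal axis, downstream to the right, and 1 line per library. All libraries reach about 0 near the start, and for ZNF605, ZNF26, ZNF84, ZNF891 and ZNF10 the ZNF274KO lines climb back farther from the start than the WT lines.

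The length of the low stretch around a start was then taken as the distance between the nearest groups of 5 neighbouring CpGs, on either side, with a level of at least 50%. This measure was chosen after the bins had been seen and carries no test. It could be taken at 9 starts of the window, and at 7 of them each ZNF274KO library had a longer stretch than each WT library, those of ZNF891 and ZNF10 being the same stretch. Over 12853 starts of the genome 17.1% were longer and 11.3% shorter in this sense, with a median change of 8 bases. At ZNF891 and ZNF10 it was 1329 and 1360 bases in WT, and 3274 and 2108 bases in ZNF274KO. At ZNF84 it went from 1559 and 1720 to 2713 and 2441 bases, and at ZNF140 from 1596 and 1852 to 2548 and 2297. At ZNF605 it went from 960 and 1038 to 1352 and 1340 bases, at ZNF26 from 1293 and 1278 to 1582 and 1339, and at CHFR from 915 and 896 to 978 and 954. At GOLGA3 and ZNF268 the libraries overlapped.

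**Figure D5:**
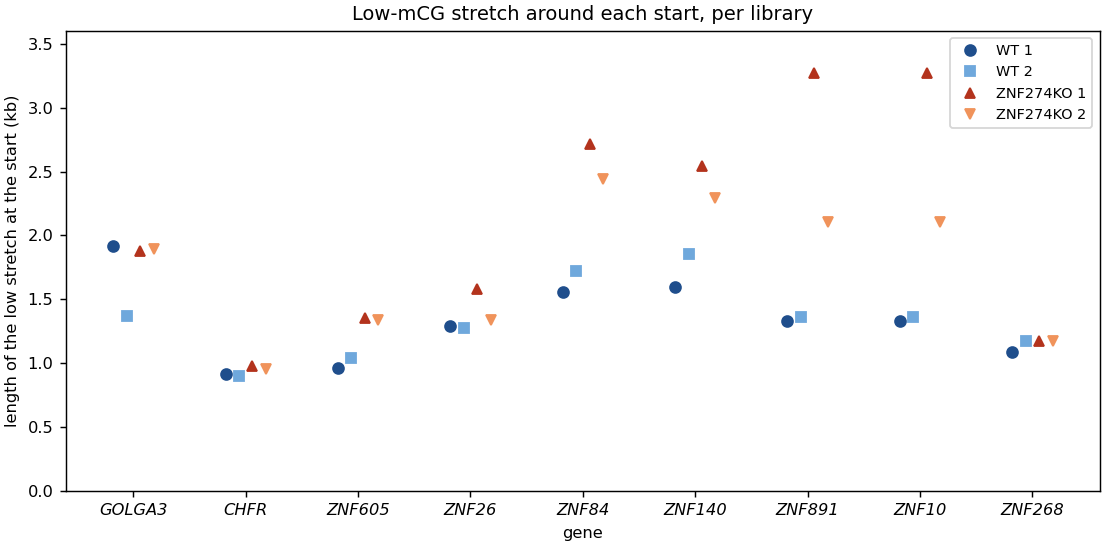
Length of the low-mCG stretch around each start (kb, vertical axis, from 0), with 1 point per library for each gene. ZNF891 and ZNF10 share 1 stretch, which was the one with the largest change, from about 1.3 kb in WT to 2.1 and 3.3 kb in ZNF274KO.

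CpG islands, found by sequence as stretches of at least 500 bases with a GC content of at least 55% and many CpGs, were split by position. The 892 island CpGs within 1 kb of a start were at 11.7% ± 0.480 in WT and at 6.93% ± 0.523 in ZNF274KO (SD, n = 2). The 590 island CpGs away from starts were at 75.1% and 75.5%, and at 77.9% and 71.5%, so that the groups overlapped. Among the latter, an island of 126 CpGs within run 1 (chr12:133484460-133486072) had 46.2% and 50.6% in WT, and 40.4% and 31.1% in ZNF274KO. It lay amid tiles that rose, and its own 2 kb tile was not called (-9.68 points, edgeR adjusted p = 0.350). An island before it in the same run, of 44 CpGs (chr12:133480992-133481770), had 69.5% and 75.9% against 90.5% and 82.4%.

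The summary that the study used for regions, the 75th percentile over CpGs of the mean level of the replicates, was taken as a description. For the 7 KZFP bodies its median difference was 0.184 points. It was lower in ZNF274KO for ZNF140 and ZNF891 (-3.85 points each) and for ZNF26 (-0.160 points), unlike their summed levels, and higher for the other KZFP bodies, by at most 1.88 points (ZNF605, from 94.1% to 96.0%). Its WT value was 100% for the ZNF140 and ZNF891 bodies, and 94.1% to 96.0% for the other KZFP bodies. At such values the summary had little or no room to rise. For the ZNF605 promoter it went from 77.6% to 24.5%, for ZNF268 from 37.5% to 0%, and for the last coding exon of ZNF605 from 52.2% to 89.1%. For the ANHX body it went from 7.14% to 83.4%. The summed level of the ZNF268 promoter moved less, from a mean of 23.4% in WT to 19.9% in ZNF274KO, and that promoter was not called. In this summary, as in the summed levels, promoters and bodies moved in opposite directions at ZNF605.

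The subtelomeric KZFP cluster at 4p16.3 (chr4:1-500000, 5462 CpGs) served for comparison. Its level was 32.2% and 33.4% in WT, and 58.7% and 49.3% in ZNF274KO, 21.2 points higher, and 148 of its 243 tiles were called higher and 2 lower. There 4 of the 5 KZFP bodies were called higher, with ZNF141 going from 8.82% and 9.81% to 68.2% and 53.8%. The promoters of ZNF718, ZNF732 and ZNF141 were called higher as well, by 25.8, 24.9 and 19.7 points, from WT levels of 52.9% to 70.9%, whereas at 12q24.33 the called promoters were lower, from WT levels of 12.9% to 14.7%. Of the 5 KZFP promoters at 4p16.3, 4 had the groups apart upwards and 1, that of ZNF721, downwards. The ZNF721 promoter had 8.01% and 12.6% in WT, and 6.61% and 6.89% in ZNF274KO (-3.57 points), and was not called. Whether the clusters differ was not tested. ZNF721 at 4p16.3 resembled ZNF140 and ZNF891 in its WT body level of 83.3% and 83.4%, and its body differed by -3.72 points without passing the test.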

How the data were processed

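Groups (WT and ZNF274KO HEK293T, 2 EM-seq libraries each) and replicate numbers were those of the labels. The authors aligned reads with Msuite2 and HISAT2 to hg19 with rDNA added, and deposited unnormalised read counts per CpG, strand and base for each library, not pooled. How mapping quality and duplicates were treated is not given in the sources used here, so reads from repeated sequence or duplicates could enter the counts. The window and the gene lists were chosen with earlier results of these data known.

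Protein-coding genes and canonical transcripts came from GENCODE release 44 mapped to GRCh37, and the readthrough ENSG00000256825 was left out of counts of genes. Named genes were those whose canonical transcript overlaps the window, and named tiles were the 5 largest rises and 5 largest falls called with at least 10 CpGs and the groups apart, with the 3 most negative tiles. A region was tested if each library had 20 reads and 5 CpGs there. The quasi-likelihood test of edgeR 4.0.16 (R 4.3.3) was run on counts of C and T, modelling each library's own term and the log-odds of methylation by group, over all regions of the kind on the autosomes and X, with Benjamini-Hochberg adjustment. A fit with bias-adjusted deviances was run first and its calls were seen. It could not be fitted with single libraries left out, and was replaced by the unadjusted quasi-binomial form, which was also run on simulated reads. The simulated libraries varied independently in each region, with no shift of a library shared between regions. In the data ZNF274KO 1 lay above ZNF274KO 2 in 67 of the 70 higher tiles, so the simulation does not vouch for the calls. The fit with bias-adjusted deviances is kept as an alternative. Other alternatives were minimums of 10 and 50 reads or none, a replicate block, centring, limma 3.58.1 (pseudocount 1), CpG filters, other tile, promoter and body definitions, and each library left out. Python 3.11.15, numpy 2.4.6, pandas 2.3.3, matplotlib 3.10.9 and samtools 1.23.1 were used. Depth was 70010 to 90533 reads per library over the window, and 2 libraries per group limit the precision.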

Additional observations from a re-analysis of the deposited data

How the results depend on the processing

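The edgeR fit with bias-adjusted deviances and the levels without repeated sequence were chosen after the data were seen. Of 574 values under an alternative, 519 kept their direction and their side of the threshold, or their size. A count of calls was taken to keep its size within a wide ratio of the main count, so moderate losses pass as kept. Of the 36 single tiles and genes 17 were called in the main fit, so the total includes regions that were not called in either setting. Of the 504 for single tiles and genes 9 changed sign, all for values not called in either setting. Over the whole gene span with promoters the CHFR body was at 6.80 points and the ZNF891 body at -1.20. With 500 bases either side of the start the GOLGA3 promoter was at 0.0420 points and the ZNF26 promoter at -1.85, and with 2 kb the ZNF26 promoter was at -1.39. Without single libraries the ZNF26 promoter ranged from -1.33 to 1.41 points and its last coding exon from -1.88 to 1.12. Called tiles numbered 75, and 54 to 80 without single libraries, fewest without ZNF274KO 1. Limma called 11, and tiles of 1 kb and of 10 kb gave 122 and 12 calls, the latter of 40 tiles. Bias-adjusted deviances gave 67, all among the 75. Called bodies numbered 4, 2 with limma and 2 to 5 without single libraries. Called promoters numbered 2 (lower), 0 with limma, 1 with bias-adjusted deviances, 2 to 3 without single libraries, and 4 with starts at the end of the gene span, where CHFR begins at the ZNF605 start. Called last coding exons numbered 1, and 0 with limma. Of the 17 tiles and genes named above as called, 6 were still called with limma, 11 without ZNF274KO 1, and 16 or 17 without each of the other libraries. For each of these counts the cause was not tested. The difference over the window was 5.87 points without CpGs in sequence repeated on chromosomes or scaffolds, and 7.06 to 11.3 without single libraries. The former also changes which part of the window is averaged. A lone library of a group was taken to vary as the pair of the other group did.

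Replicate numbers were not shown to pair the libraries. The difference of WT 1 and WT 2 correlated at -0.0698 with that of ZNF274KO 1 and ZNF274KO 2 over tiles. With a replicate block 84 tiles, 3 bodies, 3 promoters and 2 last coding exons (ZNF605 and ZNF10) were called, and the window difference was 9.16 points.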
